A study of Platynereis dumerilii with 97 samples.

Results

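Animal eggs are loaded with messenger RNA made by the mother, and this maternal RNA runs the first cell divisions before the embryo transcribes its own genome. A maternal transcript can then be cleared, held near its egg level, or added to by the embryo until it stands above that level. In the marine annelid Platynereis dumerilii, spiral cleavage and gastrulation lead to the trochophore, a larva that swims with a belt of cilia, which later forms segments with bristles and becomes a feeding juvenile.

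The transcripts described here were already present, by their pooled level, at 1-6 h after fertilization and stood higher in the trochophore. No egg was sampled, and the embryos of 1-6 h stand here for the maternal supply. Of 10908 transcripts listed, 2992 had a pooled level of at least 50 CPM, counts of a transcript per 1000000 transcript counts of the library, in the embryos of 1-6 h. Of these, 162 had more than 2 times that level in the embryos of 43-51 h. The 150 members were chosen by measured levels, as those of the 162 with the highest ratio of the level at 25-36 h to that at 1-6 h. A pooled level divides the summed counts of a transcript by the summed transcript counts of all embryos in the window. The totals leave out PT_v1_tr_02502, which alone held between 48.0% and 68.7% of the transcript counts in the 6 youngest embryos. The levels at 1-6, 25-36 and 43-51 h therefore chose the members and are given as description, with no test.

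Each library was made from 1 whole embryo by CEL-Seq, which tags the 3' ends of polyadenylated RNA with a barcode and amplifies it by in vitro transcription. There were 97 embryos from several matings, labelled hourly from 1 to 95 h after fertilization and then 97 and 120 h, and no label gives a genotype, a treatment or which embryos shared parents. They fell into windows of 1-6, 7-12, 18-23, 25-30, 31-36 and 37-42 h (n = 6 each), 13-17 h (n = 5), 43-51 h (n = 9), 52-65 h (n = 14), 66-80 h (n = 15) and 81-95 h (n = 15). The labels give hours and no stages, and 25-36 h was taken as the trochophore. Embryos of a window differ in age, so p-values measure the spread between single embryos of neighbouring hours. In whole embryos, fewer cells of a type and less RNA per cell cannot be told apart. The files pair no gene names with the identifiers, so roles of the members are not given here.

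Transcript counts without PT_v1_tr_02502 had a median of 492850 per embryo and reached 1893173. A level of 50 CPM is about 12.6 counts in the median library of 1-6 h. The lowest totals were 2816 counts in the library labelled 62 h and 94681 in that labelled 21 h. Libraries labelled 21, 24, 48 and 72 h stood apart from their neighbours in the levels of the members. PT_v1_tr_08510, for example, had 78.9 CPM in the library labelled 48 h and between 5690 and 11228 CPM in the other embryos of 43-51 h. The library labelled 24 h is embryo 95 and entered no window, that labelled 48 h was left out of pooled levels at 43-51 h, and results that rest on those labelled 21, 62 and 72 h are given with and without them. The spread between embryos also changed at 52 h, where the embryo numbers pass 50: the members' median coefficient of variation was 45.1% at 52-65 h and 25.2% at 43-51 h. A spread of that size was also seen among embryos 1 to 50, with 47.0% at 1-6 h, 45.0% at 7-12 h and 42.1% at 18-23 h. It was 29.7% at 13-17 h and 31.4% at 25-30 h. The window of 52-65 h also spans more hours than that of 43-51 h. The labels name no batch, age and library preparation cannot be told apart across 52 h, and no test spans that hour.

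Together the 150 members made up a small part of the maternal RNA and a larger part of the larval RNA. Their summed share of the counts was 3.99% ± 0.53 (SD) at 1-6 h, 6.47% ± 1.49 at 7-12 h, 10.8% ± 1.14 at 13-17 h and 13.0% ± 5.04 at 18-23 h. It was 16.3% ± 1.02 at 25-30 h, 18.0% ± 1.10 at 31-36 h, 18.1% ± 1.14 at 37-42 h and 17.1% ± 1.07 at 43-51 h. The embryos of 1-6 h lay between 3.26% and 4.71%, and those of 31-36 h between 16.1% and 19.3%. At 18-23 h the library labelled 21 h, with 3.58%, lay at the level of the youngest embryos, and the other embryos averaged 14.9% ± 2.28 (n = 5). After 52 h the share was 15.8% ± 1.09 at 52-65 h, 14.6% ± 1.60 at 66-80 h and 13.4% ± 0.896 at 81-95 h. At 66-80 h the library labelled 72 h was highest with 19.6%, and the embryos without it averaged 14.2% ± 0.797 (n = 14). The share was 17.3% ± 1.04 at 43-51 h without the library labelled 48 h (n = 8) and 16.0% ± 0.916 at 52-65 h without that labelled 62 h (n = 13).

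**Figure D1:**
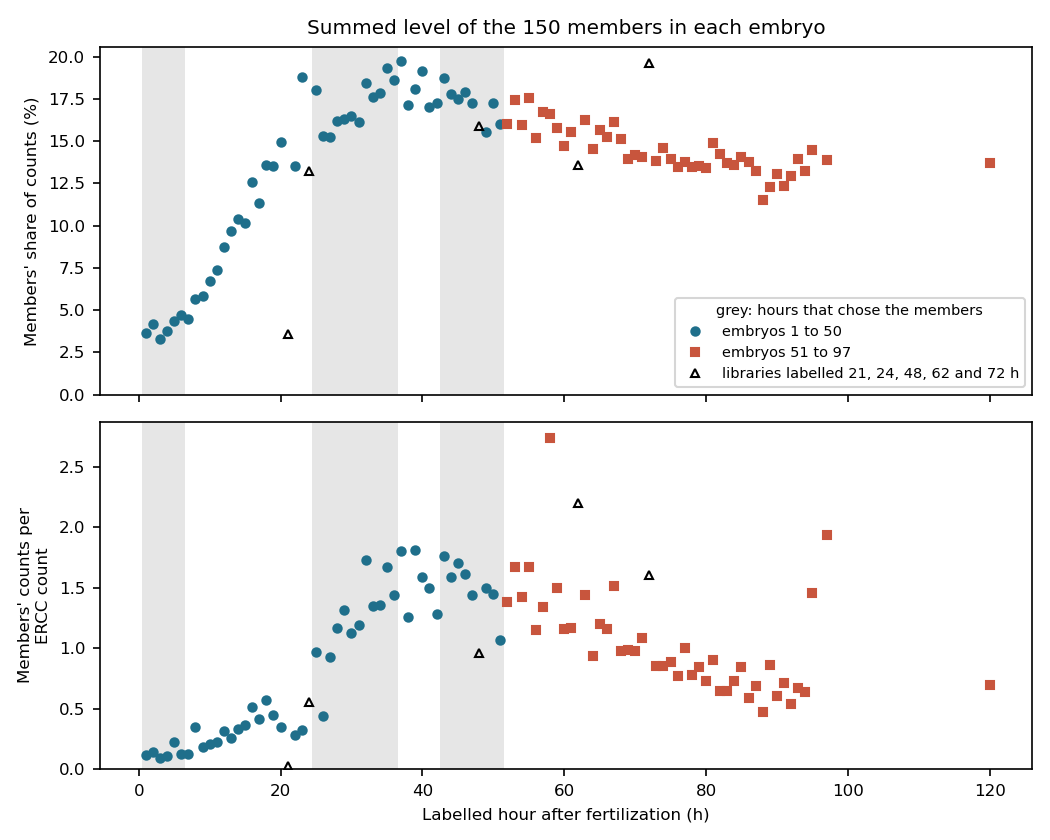
The members' summed share of transcript counts (upper panel, percent) and their summed counts per ERCC spike-in count (lower panel) in each embryo against its labelled hour. Grey bands mark the hours that chose the members, circles embryos 1 to 50, squares embryos 51 to 97 and triangles the libraries labelled 21, 24, 48, 62 and 72 h. The share averaged 3.99% at 1-6 h, 18.1% at 37-42 h and 13.4% at 81-95 h.

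The other 2842 transcripts of at least 50 CPM at 1-6 h took the opposite course. Their summed share averaged 86.6% at 1-6 h, 61.8% at 25-30 h and 52.8% at 81-95 h. The median pooled level of the members was 95.2 CPM at 1-6 h, 222 CPM at 7-12 h, 330 CPM at 13-17 h, 466 CPM at 25-30 h, 580 CPM at 37-42 h and 373 CPM at 81-95 h. For the other maternal transcripts the medians were 114, 112, 86.5, 64.7, 57.8 and 39.1 CPM in the same windows. The members thus started near the level of the other maternal transcripts. Relative to the ERCC spike-ins, which are artificial RNAs added in amounts not given in the sources used here, the members had 0.133 counts per spike-in count at 1-6 h, 0.376 at 13-17 h, 0.334 at 18-23 h, 0.990 at 25-30 h, 1.54 at 37-42 h and 0.733 at 81-95 h. All other transcripts together had 3.16, 3.06, 2.07, 5.08, 6.96 and 4.70 in those windows. Without the library labelled 21 h, the embryos of 18-23 h had 0.395 for the members and 2.34 for all others, and the embryos of 13-17 h and 18-23 h overlapped in both. By this measure the transcripts outside the set also stood higher after 25 h. The 2842 alone were not set against the spike-ins.

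The ratio that ranked the members had a median of 3.37 and ran between 1.31 and 107. It was over 2 in 124 members, over 4 in 63 and over 10 in 20. PT_v1_tr_06246 and PT_v1_tr_01511 were the last inside the bound, with ratios of 1.36 and 1.31, and PT_v1_tr_04978 and PT_v1_tr_07449 were the first outside, both with 1.30. The bound at 150 members thus falls in a continuous range. The 10 members with the highest counts held 42.7% of all member counts at 1-6 h, 38.6% at 25-36 h and 43.1% at 81-95 h. In pooled counts no single member made up the summed share: the largest held 9.80% of it at 1-6 h, 5.30% at 25-36 h and 13.5% at 81-95 h. In some single embryos the largest held more, such as 19.8% at 20 h and 17.2% at 25 h.

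PT_v1_tr_08567 had the highest ratio, 107, with a pooled 9043 CPM at 25-36 h and 84.5 CPM at 1-6 h. Its level differed widely between embryos of neighbouring hours. At 20, 22 and 23 h it had 29546, 1488 and 34174 CPM, and at 37-42 h the embryos ran from 524 to 20551 CPM with a median of 6689 CPM. It was called in no comparison, its log2 change from the edgeR fit being 2.85 for 13-17 h against 7-12 h (SE 0.79, adjusted p = 0.0613). PT_v1_tr_10611 came next with a ratio of 28.1, a pooled 2157 CPM at 25-36 h and 76.9 CPM at 1-6 h.

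PT_v1_tr_05422, the member with the second highest level at 25-36 h, was called higher in 2 comparisons. Its pooled level was 641 CPM at 1-6 h, 973 CPM at 7-12 h, 2616 CPM at 13-17 h, 3078 CPM at 18-23 h, 7817 CPM at 25-30 h, 9230 CPM at 31-36 h, 6843 CPM at 37-42 h and 1976 CPM at 81-95 h. The embryos of 13-17 h had 1902, 2607, 2896, 3118 and 2382 CPM, against 704, 977 and 1309 CPM as the lowest, median and highest of 7-12 h. These groups did not overlap, and the log2 change was 1.51 (SE 0.20, edgeR adjusted p = 0.001265). The embryos of 37-42 h ran from 6140 CPM over a median of 6644 CPM to 8896 CPM, against 813, 2881 and 4306 CPM at 18-23 h. These groups did not overlap either, with a log2 change of 1.33 (SE 0.26, edgeR adjusted p = 0.001333).

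To describe the hours of the rise, the onset of a member was taken as the first window in which its pooled level passed a midpoint. The midpoint was the geometric mean of the levels at 1-6 h and 25-36 h, and the level need not stay above it. By this measure 52 members had their onset at 7-12 h, 56 at 13-17 h, 12 at 18-23 h, 27 at 25-30 h and 3 at 31-36 h. So 108 of the 150 had passed the midpoint in at least 1 window by 17 h, before the hours of 25-36 h. Of the 52 with onset at 7-12 h, 33 stood over 2 times their level of 1-6 h in that window. Some passed the midpoint only for a time: PT_v1_tr_08177 had 86.3 CPM at 1-6 h, 166 CPM at 7-12 h and 95.6 CPM at 13-17 h. For members with a low ratio the midpoint lies close to the level at 1-6 h. With the arithmetic mean as midpoint, 83 members had passed it by 17 h, with 25 members at 7-12 h and 48 at 25-30 h. Members with onset at 7-12 h had a median of 72.2 CPM at 1-6 h, and those with onset at 25-30 h had 158 CPM. At 25-36 h those medians were 337 and 418 CPM.

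**Figure D2:**
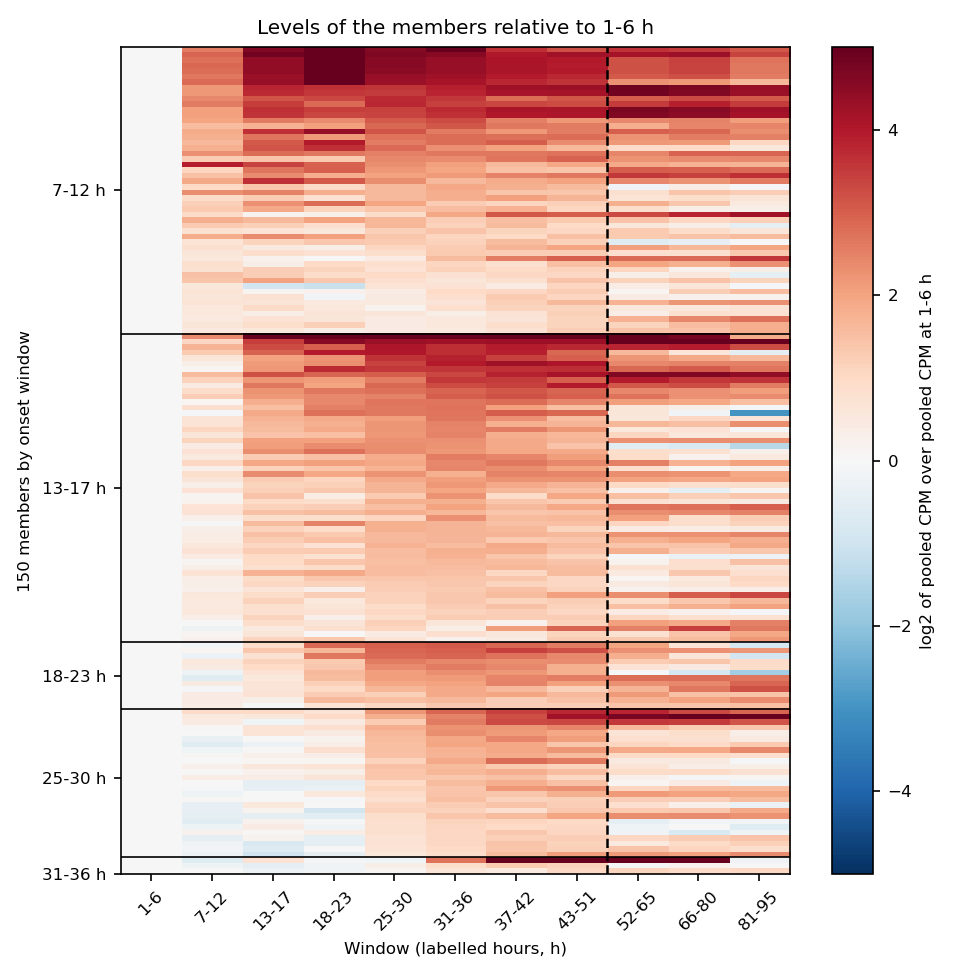
Pooled level of each of the 150 members (rows) in each window (columns), as the log2 ratio to its level at 1-6 h, ordered by onset window and then by the ratio that ranked the members. Horizontal lines part the 52, 56, 12, 27 and 3 members of the onset windows, and the dashed line marks 52 h. At 13-17 h, 37 of the 52 and 44 of the 56 members in the upper 2 blocks stood over 2 times their level of 1-6 h. Of the 27 in the 25-30 h block, 1 did so at 18-23 h and 17 at 25-30 h.

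The windows 7-12, 13-17, 18-23, 37-42, 52-65, 66-80 and 81-95 h were not used by the rule and were compared with edgeR's quasi-likelihood test across all transcripts. Members lie low at 1-6 h and high at 25-36 h by choice, so higher levels somewhere between these hours follow from the rule. The comparisons tell in which hours they appear and in which members, and the share of members called is set beside that of all transcripts tested. Member counts at other thresholds or from other fits, where given without a share of all transcripts, cannot be set against that background. Log2 changes run later over earlier, and a transcript is called where its p, adjusted by the Benjamini-Hochberg method over all transcripts tested, is under 0.05.

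The members' climb was well under way between 7-12 h and 13-17 h. Of 150 members tested, 34 were higher at 13-17 h and 0 lower, where 3.33% of all 4411 transcripts tested were called higher and 1.25% lower. At an unadjusted p under 0.05, 76 members were higher and 1 lower, and DESeq2 called 49 higher and 0 lower. With spike-in scaling 10 members were called higher and 0 lower. The median log2 change was 0.74 over the members and -0.04 over all transcripts tested, and 131 members had a change above 0. The count of members called higher rested on few embryos, being 11, 12, 20, 17 and 19 without the embryo labelled 16, 15, 17, 8 or 9 h. Over all transcripts 147 were called higher and 55 lower, against 115 and 75 with total-count scaling and 81 and 55 with spike-in scaling.

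PT_v1_tr_07919 showed the largest rise among the members called. The embryos of 13-17 h had 137, 362, 487, 331 and 342 CPM, against 7.05, 56.5 and 108 CPM as the lowest, median and highest of 7-12 h. The groups did not overlap, with means of 332 ± 125 CPM (SD, n = 5) and 62.1 ± 39.9 CPM (n = 6) and a log2 change of 2.53 (SE 0.48, edgeR adjusted p = 0.01339). It was then called higher again at 37-42 h.

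PT_v1_tr_01975 had 739, 975, 994, 1228 and 1697 CPM in the embryos of 13-17 h, against 66.0, 234 and 600.04 CPM as the lowest, median and highest of 7-12 h. Its level was higher in each later hour of 13-17 h, and the groups did not overlap. The log2 change was 2.26 (SE 0.43, edgeR adjusted p = 0.01339). From 25 h on it had 2121 CPM at 25-30 h, 2064 CPM at 37-42 h, 3635 CPM at 52-65 h and 4519 CPM at 81-95 h, so it was one of the members that stayed high to the end of the course.

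Between 13-17 h and 18-23 h no member was called by edgeR, of 149 tested, and no transcript at all, so that 0.0% of 3879 were called higher and 0.0% lower. At an unadjusted p under 0.05, 21 members were higher and 2 lower, and DESeq2 called 4 members higher and 0 lower. The median log2 change was 0.19 over the members and -0.08 over all transcripts tested. The sign of the members' median depended on the scaling, being -0.02 with total counts and -0.40 with spike-ins, while its distance from the median of all transcripts lay between 0.27 and 0.29. Without the library labelled 21 h, 2 members were called higher and 0 lower. Library totals without PT_v1_tr_02502 averaged 242739 counts at 18-23 h and 361931 at 13-17 h. A fit with the library total including PT_v1_tr_02502 as covariate also called 0 members.

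**Figure D3:**
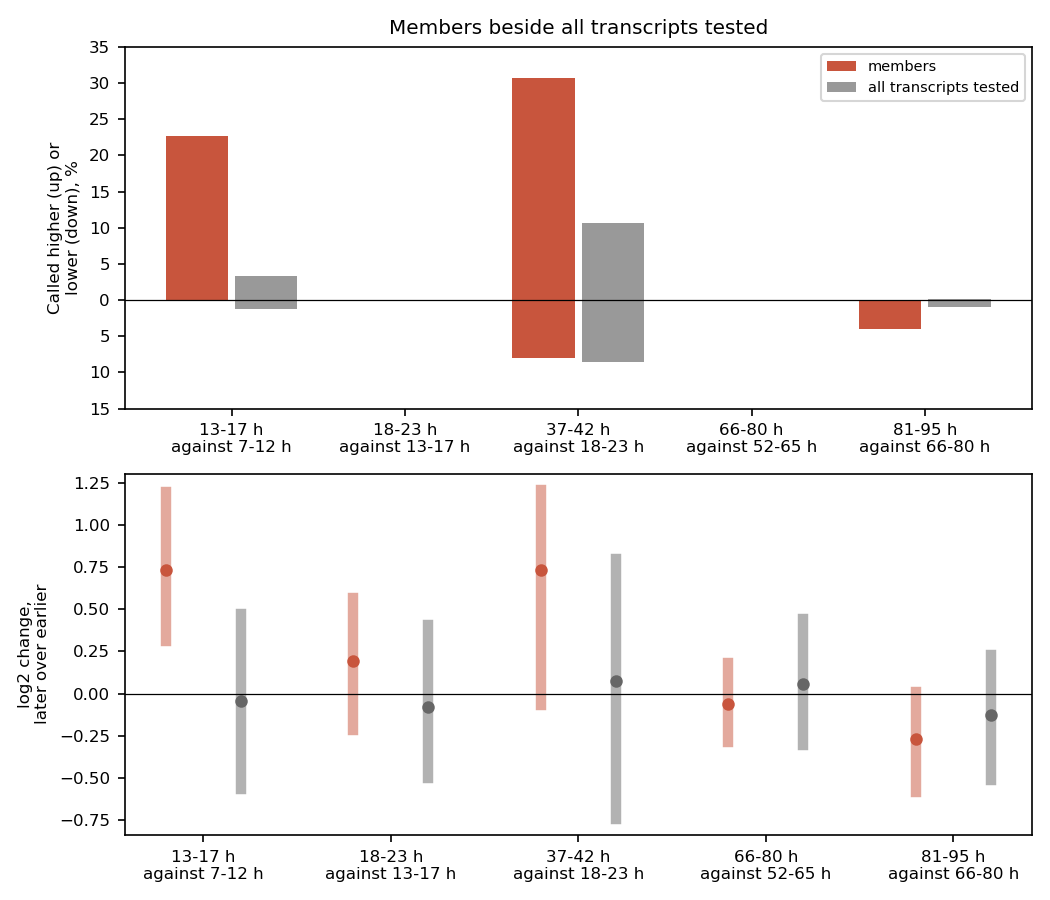
Upper panel: percent of members (red) and of all transcripts tested (grey) called higher (above 0) or lower (below 0) in the 5 comparisons. Lower panel: median log2 change, later over earlier, with a bar over the middle 50% of transcripts. The members' medians were 0.74 and 0.73 for 13-17 h against 7-12 h and for 37-42 h against 18-23 h, beside -0.04 and 0.07 over all transcripts.

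Between 18-23 h and 37-42 h members were called in both directions. Of 150 members tested, 46 were higher at 37-42 h and 12 lower, where 10.6% of all 4264 transcripts tested were called higher and 8.63% lower. The members' share called lower, 8.00%, was thus near that of all transcripts. The median log2 change was 0.73 over the members and 0.07 over all transcripts tested. Without the library labelled 21 h, 52 members were higher and 16 lower, with a median of 0.71. Library totals without PT_v1_tr_02502 averaged 596439 counts at 37-42 h and 242739 at 18-23 h. A fit with the library total including PT_v1_tr_02502 as covariate called 15 members higher and 0 lower. With spike-in scaling the median of all transcripts was 1.85 and that of the members 2.41, and 118 members were higher and 0 lower; over all transcripts 2194 were then called higher and 14 lower, against 453 and 368 with the main scaling.

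Members with a late onset were called higher most often. Of the 27 with onset at 25-30 h, 22 were higher at 37-42 h, as were 12 of the 56 with onset at 13-17 h, 4 of the 12 with onset at 18-23 h and 6 of the 52 with onset at 7-12 h. The onset used hours between these windows, so this split describes the same course and is no separate result. The 46 had a median of 291 CPM at 18-23 h, 516 CPM at 25-30 h, 679 CPM at 31-36 h, 1003 CPM at 37-42 h and 534 CPM at 81-95 h. Of the 46, 10 had also been called higher at 13-17 h against 7-12 h.

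PT_v1_tr_08510 showed the largest rise. The embryos of 37-42 h had 1015, 2681 and 4774 CPM as the lowest, median and highest, against 33.9, 67.9 and 86.2 CPM at 18-23 h. The groups lay far apart, with a log2 change of 5.20 (SE 0.44, edgeR adjusted p = 3.038e-07). Its level had not risen by 25-30 h, with pooled 66.8 CPM at 1-6 h and 61.6 CPM at 25-30 h, and was 433 CPM at 31-36 h and 7655 CPM at 52-65 h.

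PT_v1_tr_06856 had 223, 633 and 752 CPM as the lowest, median and highest of 37-42 h, against 0, 75.7 and 128 CPM at 18-23 h. The value of 0 was in the library labelled 21 h, and the groups did not overlap. The log2 change was 2.84 (SE 0.44, edgeR adjusted p = 0.0001939). Its level had been 56.7 CPM at 1-6 h and 112 CPM at 13-17 h, and was 423 CPM at 81-95 h.

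All 12 members that fell had their onset at 7-12 h, and 7 of them had been called higher at 13-17 h against 7-12 h. Some of the 12 had near-identical profiles, described below, and counting these as 1 leaves 9. The 12 are called the early wave here, a name for their course and not a class of its own, since their number is near the background share. Their median level was 65.9 CPM at 1-6 h, 429 CPM at 7-12 h, 1264 CPM at 13-17 h, 2253 CPM at 18-23 h, 1148 CPM at 25-30 h, 822 CPM at 37-42 h and 382 CPM at 81-95 h. In 10 of the 12 the highest window was 18-23 h, which largely follows from choosing them as higher at 18-23 h than at 37-42 h. At 37-42 h they had come down from that maximum and still stood well above the egg. As given above, none of the 12 was called lower with spike-in scaling or with library total as covariate.

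PT_v1_tr_07184 showed the largest fall, with 318, 683 and 826 CPM as the lowest, median and highest of 37-42 h, against 602, 2449 and 6219 CPM at 18-23 h. The groups overlapped through the library labelled 21 h, which held the value of 602 CPM, and the next lowest embryo of 18-23 h had 1498 CPM. The log2 change was -2.36 (SE 0.42, edgeR adjusted p = 0.0006587). It was -0.44 with spike-in scaling (edgeR adjusted p = 0.5212) and -2.30 with library total as covariate (edgeR adjusted p = 0.05832).

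PT_v1_tr_01608 had 224, 249 and 427 CPM as the lowest, median and highest of 37-42 h, against 515, 971 and 1275 CPM at 18-23 h. The groups did not overlap, and the log2 change was -1.92 (SE 0.32, edgeR adjusted p = 0.0003173). The direction turned with spike-in scaling, at 0.16 (edgeR adjusted p = 0.825), and the change with library total as covariate was -1.32 (edgeR adjusted p = 0.1724).

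After 52 h few members were called. Between 52-65 h and 66-80 h, 0 of 150 members were called higher and 0 lower by edgeR, where 0.0735% of all 4082 transcripts tested were called higher and 0.049% lower. At an unadjusted p under 0.05, 4 members were higher and 8 lower, and DESeq2 called 7 higher and 3 lower. The median log2 change was -0.06 over the members and 0.06 over all transcripts tested, and DESeq2 size factors turned the members' median to 0.13. Without the library labelled 72 h, 0 members were higher and 1 was lower, and without that labelled 62 h 0 were called. Over all transcripts 3 were called higher and 2 lower, against 3 and 23 with spike-in scaling.

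Between 66-80 h and 81-95 h, 6 members fell and 0 rose of 149 tested, where 0.946% of all 3487 transcripts tested were called lower and 0.086% higher. At an unadjusted p under 0.05, 35 members were lower and 1 higher, and DESeq2 called 7 lower and 0 higher. The number of members lower was 2 with DESeq2 size factors in edgeR, 2 with total counts, 1 with spike-in scaling and 20 without a filter on low counts. The median log2 change was -0.27 over the members and -0.13 over all transcripts tested. It was below 0 in 111 of the 149 members and in 2113 of the 3487 transcripts. Without the library labelled 72 h, 4 members were lower. Library totals without PT_v1_tr_02502 averaged 358219 counts at 81-95 h and 582146 at 66-80 h. No member was called in a fit with the library total including PT_v1_tr_02502 as covariate. Over all transcripts 3 were called higher and 33 lower, against 4 and 16 with total-count scaling. Of the 6 that fell, 5 belonged to the early wave, having been called higher at 13-17 h and lower at 37-42 h. These 5 include a set of 4 with near-identical profiles, described below, and the 6 are 3 distinct profiles.

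PT_v1_tr_08510 was the sixth, and had 0, 2.69 and 449 CPM as the lowest, median and highest of 81-95 h, against 0, 851 and 13174 CPM at 66-80 h. The highest value was in the library labelled 72 h, without which the embryos of 66-80 h reached 3832 CPM. The groups overlapped, and the log2 change was -5.71 (SE 1.30, edgeR adjusted p = 0.02304), or -4.84 without that library (edgeR adjusted p = 0.05921). The call was also lost with spike-in scaling (edgeR adjusted p = 0.05577) and with library total as covariate (edgeR adjusted p = 0.7674). Its high level was thus a passing one, near 68.7 ± 39.9 CPM at 25-30 h, 8111 ± 1780 CPM at 43-51 h (SD, n = 6 and 8) and 41.1 ± 116 CPM at 81-95 h (n = 15).

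PT_v1_tr_03668, one of the early wave, had 1290, 2510 and 6009 CPM as the lowest, median and highest of 81-95 h, against 2831, 4487 and 7353 CPM at 66-80 h. The groups overlapped, and the log2 change was -1.13 (SE 0.21, edgeR adjusted p = 0.002378), or -0.84 with library total as covariate (edgeR adjusted p = 0.2993). Its pooled level was 263 CPM at 1-6 h, 1974 CPM at 7-12 h, 7391 CPM at 13-17 h, 11744 CPM at 18-23 h, 6147 CPM at 31-36 h and 2764 CPM at 81-95 h.

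The set was chosen for its level in the trochophore, but most members were highest at other hours. The window of the highest pooled level lay at 25-36 h in 37 members, before 24 h in 25, at 37-51 h in 36 and at 52 h or later in 52. With the median CPM over embryos in place of the pooled level these numbers were 40, 25, 40 and 45. The single window with the most members at their highest level was 81-95 h, with 30, followed by 31-36 h with 29 and 37-42 h with 27. By this tally, 37 of the 150 members were highest in the hours taken as the trochophore. The tally compares levels across 52 h, where age and library preparation cannot be told apart. The rule also required a raised level at 43-51 h. Transcripts highest at 25-36 h that lacked this raised level could not be members. That includes transcripts that at 43-51 h still stood above their level of 1-6 h but short of the required rise. The number of members highest at 25-36 h therefore depends in part on the rule.

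By the end of the course the members differed in how far their levels had changed since 25-36 h. The ratio of the pooled level at 81-95 h to that at 25-36 h had a median of 0.729, was under 0.5 in 53 members and under 0.1 in 7, and was over 2 in 21 and over 4 in 5. Its 10th and 90th percentiles were 0.27 and 2.47 over the members. Over the other transcripts of at least 50 CPM at 1-6 h they were 0.12 and 2.04, with a median of 0.587. Differing courses were thus not particular to the members. At 81-95 h, 129 members were still above their level of 1-6 h and 21 below it. These ratios span 52 h and use hours of the rule, so no test was made.

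PT_v1_tr_09607 was highest by this ratio, at 8.86, with a pooled 6261 CPM at 81-95 h, 707 CPM at 25-36 h and 158 CPM at 1-6 h. In the tested windows it had 677, 1545 and 1865 CPM as the lowest, median and highest of 37-42 h, against 42.2, 282 and 395 CPM at 18-23 h. The groups did not overlap, and the log2 change was 2.31 (SE 0.34, edgeR adjusted p = 0.000125). PT_v1_tr_08177 followed with a ratio of 6.83 and a pooled 1634 CPM at 81-95 h, and its log2 change for 37-42 h against 18-23 h was 2.68 (SE 0.50, edgeR adjusted p = 0.001022).

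PT_v1_tr_10080 had the lowest ratio, 0.0198, with a pooled 30.3 CPM at 81-95 h against 1534 CPM at 25-36 h, and 9 of the 15 embryos of 81-95 h had no count of it. It was among the early risers: the embryos of 13-17 h had 943, 838, 1129, 866 and 735 CPM, against 141, 238 and 352 CPM as the lowest, median and highest of 7-12 h. The groups did not overlap, and the log2 change was 2.06 (SE 0.23, edgeR adjusted p = 0.0006641). At 43-51 h it had 1761 ± 309 CPM (SD, n = 8 without the library labelled 48 h), and at 52-65 h 387 ± 236 CPM (n = 13 without that labelled 62 h), so most of its loss lay across 52 h. PT_v1_tr_08567 was next lowest, with a ratio of 0.0338.

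**Figure D4:**
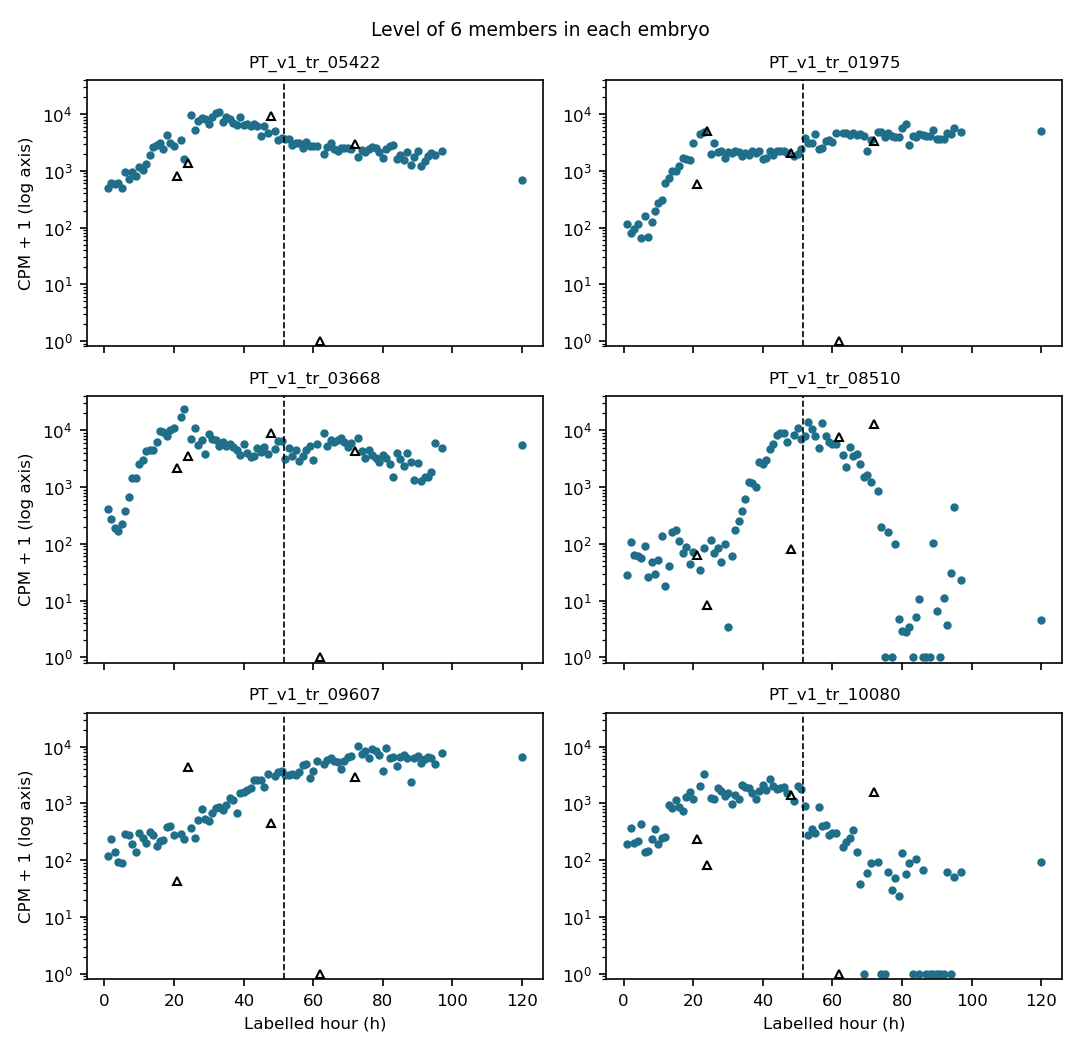
Level of 6 members in each embryo as CPM + 1 on a log axis against the labelled hour, so that a level of 0 is drawn at 1. The dashed line marks 52 h and triangles the libraries labelled 21, 24, 48, 62 and 72 h. The panels show a member called higher in 2 comparisons (PT_v1_tr_05422, highest pooled level 9230 CPM), a rise that stayed (PT_v1_tr_01975), an early wave (PT_v1_tr_03668), a passing high level (PT_v1_tr_08510), a late rise (PT_v1_tr_09607) and a rise lost by the end (PT_v1_tr_10080).

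Over the 5 comparisons 75 members were called at least 1 time and 75 in none, where 15.3% of the 6303 transcripts tested in any of them were called. In the 3 comparisons up to 42 h, 70 members were higher in at least 1 and 12 lower, where 10.8% of the 5357 transcripts tested in any of these were higher and 7.78% lower. The rule placed the members low at 1-6 h and high at 25-36 h, so calls higher before 42 h are not independent of it. The 75 without a call were less abundant, with a median of 87.0 CPM at 1-6 h and 307 CPM at 37-42 h. Within windows the members varied between embryos about as much as other transcripts of at least 50 CPM at the start and less later. The median coefficient of variation was 47.0% for members and 42.1% for the others at 1-6 h, 29.7% and 40.4% at 13-17 h, 26.4% and 38.1% at 37-42 h, and 52.3% and 86.1% at 81-95 h. The others were not matched to the members in level. The members' median level was 95.2 CPM at 1-6 h and 580 CPM at 37-42 h. Whether their lower spread follows from their level was not tested.

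Some members may not be separate measurements. In 6 sets, 16 members (10.7%) had near-identical profiles, with a correlation over 0.95 across the 23 embryos of 7-23 h and 37-42 h and pooled levels within 1.25 times of each other. Among all 2992 transcripts of at least 50 CPM at 1-6 h, 94 (3.14%) were in such sets. One set of 4 had between 1444 and 1499 CPM at 37-42 h, and another set of 4 had between 1047 and 1102 CPM. The second set was called as 1 in every comparison: all 4 were higher at 13-17 h, lower at 37-42 h and lower at 81-95 h. It cannot be told from the files whether such transcripts are copies of a gene, parts of 1 transcript or share reads. Counting each set as 1 leaves 140 profiles, of which 30 were higher at 13-17 h against 7-12 h, 44 higher and 9 lower at 37-42 h against 18-23 h, and 3 lower at 81-95 h against 66-80 h.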

How the data were processed

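Single Platynereis dumerilii embryos were profiled by CEL-Seq, per the labels' protocols. The deposited table holds raw whole-number read counts of 97 embryos, a column each, for 10908 transcripts, 92 ERCC spike-ins and 5 summary rows. CASAVA 1.8, Bowtie2 2.1.0 and HTSeq 0.5.4p3 are named in the submitters' processing notes; their roles, settings and the reference are not given in the sources used here. No molecular identifiers are named, so amplification copies of a molecule are counted as separate reads. Summary rows held 57.7% of all counts and spike-ins 4.09%; both stayed out of library sizes and tests. No 2 columns were identical.

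Windows were compared with edgeR 4.0.16 in R 4.3.3 (glmQLFit with robust = TRUE, TMM factors, filterByExpr, library sizes without PT_v1_tr_02502), fitted on all transcripts of the embryos compared, with Benjamini-Hochberg adjustment over all of them. The SE is the size of the log2 change divided by the root of the F statistic. Pooled levels and shares were computed with Python 3.11.15 and pandas 2.3.3, and plots drawn with matplotlib 3.10.9. Members named in a comparison are the 2 that rose most and the 2 that fell most of those called with at least 50 CPM in the higher window; others were named as extremes of the ratios given. The fit was tested on simulated counts with 200 changed transcripts. The members, windows and tests were chosen with earlier results of these data known. Alternatives were DESeq2 1.42.0 size factors and its Wald test, total-count and spike-in scaling, PT_v1_tr_02502 kept, no filter on low counts, library total as covariate, and libraries or single embryos left out. The covariate was the log2 of the library total with PT_v1_tr_02502 included. Sequences, and marker genes of cell types, were not used here.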

Additional observations from a re-analysis of the deposited data

Results flagged for a closer look

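The members' share of counts in the library labelled 21 h, 3.579%, lay far below the other embryos of 18-23 h, which ran from 13.5% to 18.8%. PT_v1_tr_06856 had 222.972 CPM in the embryo labelled 38 h, below the other embryos of 37-42 h, and PT_v1_tr_01608 had 426.831 CPM in the same embryo, above the others. Of 20 groups of embryos examined in this way 3 held such a value. The groups share embryos, as the embryo labelled 38 h shows, so no chance rate is set beside this number.

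Libraries in no window also held member counts. The members' share was 13.234% in the library labelled 24 h, which is embryo 95, and 13.877% and 13.717% in those labelled 97 and 120 h, all above the 3.26% to 4.71% of the embryos of 1-6 h.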

How the results depend on the processing

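For 13-17 h against 7-12 h, the members' median log2 change was 0.60 with total counts and 0.55 (0.5450) with spike-ins, where 10 members were higher. Leaving out each embryo gave 11 to 47 members higher and medians of 0.68 (0.675) to 0.82. For 18-23 h against 13-17 h, DESeq2 called 4 members higher, and 2 were without the library labelled 21 h (0 to 2 with each embryo left out). For 37-42 h against 18-23 h, spike-ins gave 118 higher, 0 lower and a median of 2.41, no filter a median of 1.05, and the library total as a covariate 15 higher, 0 lower and a median of 0.43. Each embryo left out gave 40 to 52 higher, 9 to 16 lower and medians of 0.71 to 0.88. PT_v1_tr_01608 reversed with spike-ins (0.16).

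For 66-80 h against 52-65 h, the median was 0.13 with DESeq2 size factors (0.1333) and its Wald test (0.1325; 7 higher, 3 lower) and -0.46 with spike-ins (3 lower). Without a filter 1 was higher and 1 lower, and 1 was lower without the library labelled 72 h. For 81-95 h against 66-80 h, 2 were lower with DESeq2 size factors (median -0.0815, and -0.0811 by Wald test), 2 with total counts (-0.0519), 1 with spike-ins, 20 without a filter, 0 with the covariate and 3 with near-identical profiles counted once, a setting chosen after seeing the data. The cause of these shifts was not tested.

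Spike-ins moved the median of all transcripts to 1.85 at 37-42 h (0.07 with the main scaling). At 81-95 h against 66-80 h it was -0.13 with the main scaling, and 0.08 with total counts and 0.05 with DESeq2 size factors, so its sign turned. The members' median less that of all transcripts lay between 0.78 and 0.82, 0.27 and 0.29, 0.56 and 0.66, -0.16 and -0.12, and -0.14 and -0.13 in the 5 comparisons over all scalings. Of 138 refits of named members 130 kept the call. No library of 7-17 h had under 300000 transcript counts, so that alternative was not run for 13-17 h against 7-12 h. No paired analysis was possible because each embryo has its own number and hour, so windows share no replicate numbers. Counts cover counting error only, and at 50 CPM an egg library holds about 12.6 counts.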

Other observations

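The 12 transcripts that passed both level conditions but ranked below the 150 members differed in when they rose. Their median pooled level was 91.4 CPM at 1-6 h, 109 CPM at 25-36 h, 336 CPM at 43-51 h and 410 CPM at 81-95 h. The highest of them, PT_v1_tr_07080, had 1675 CPM at 1-6 h, 1787 CPM at 25-36 h and 21462 CPM at 81-95 h. PT_v1_tr_04978 had 85.7 CPM at 1-6 h, 191 CPM at 7-12 h and 190 CPM at 43-51 h. PT_v1_tr_07190 had 87.0, 203 and 200 CPM in the same windows, so both had a first rise by 7-12 h. In between, both came down, PT_v1_tr_04978 to 90.6 CPM at 18-23 h and PT_v1_tr_07190 to 92.7 CPM at 25-30 h. Both then rose again by 43-51 h. PT_v1_tr_07080 and PT_v1_tr_07190 were named after their values were seen. Levels at 1-6, 25-36 and 43-51 h ranked these transcripts, so the values are a description.

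Members with consecutive identifiers differed widely in likeness. Of the 8 such pairs, PT_v1_tr_03062 and PT_v1_tr_03063 had a correlation of 0.968 over the 23 embryos of 7-23 h and 37-42 h, PT_v1_tr_00462 and PT_v1_tr_00463 one of 0.957, and PT_v1_tr_03668 and PT_v1_tr_03669 one of 0.873. The correlations of the other 5 pairs lay between -0.22 and 0.38. The median was 0.22 over the 8 pairs and 0.39 over the other 11167 member pairs. These are descriptions, and the embryos of a pair share library and depth.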
